A study of Bos taurus with 5 samples.

Results

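The distal part of cattle chromosome 4, from the deposited position 105000001 to its end, was described across leukocyte libraries of 5 cattle populations. A transcript was taken into the block where the midpoint of its deposited locus span lay at or beyond that position, and its FPKM values (fragment numbers scaled to transcript length and library size) were summed per assembled locus. This gave 350 loci with 758 transcripts, of 31898 loci and 72812 transcripts in the series. Of the 350, 149 averaged 1 FPKM or more and are compared below, of 13871 such loci in the genome, here called all kept loci. The loci were chosen by position, and the block itself was chosen by its levels and differences in these same libraries, so the counts that follow describe it and support nothing.

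White blood cells were prepared from peripheral blood, and 1 library was sequenced for each population. The purebred libraries are labelled N and H, letters that the labels do not spell out. The other 3 are crosses of Holstein dairy cattle with native cattle. In 75C, Holstein made up 75 percent and native cattle 25 percent. The reciprocal crosses are 50 percent of each: 50CSN had native sires and Holstein dams, and 50CSH had Holstein sires and native dams. No treatment or age is labelled, nor whether 1 animal or a pool of animals gave each library. With 1 library for each population, a difference between 2 populations has no replicate check. The limma p-values below reflect no more than how these 5 libraries scatter, with the variance of each locus drawn toward a trend over all kept loci. The authors' q-values between 2 populations compare 1 library with 1 library and have no replicate behind them.

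This end of the chromosome carries the T cell receptor beta genes in cattle. Each maturing T cell that makes a beta chain joins a variable, a diversity and a joining segment of this locus to a constant region. A variable segment is thus transcribed at a high level mainly in the T cell clones that chose it, while a constant region is shared by many clones. In the RefSeq gene table of the newer assembly ARS-UCD2.0, 25 variable segments and 1 constant region lie on chromosome 4 between MGAM, a digestive maltase-glucoamylase, and EPHB6, an ephrin receptor without kinase activity. Trypsinogen genes such as PRSS1 and PRSS2 lie among them. The same table places 6 genes with GIMAP symbols, and 4 more with the synonym GIMAP7, farther along, beyond EZH2, the methyltransferase of Polycomb repressive complex 2. GIMAP proteins are GTPases known for their part in the survival of lymphocytes. None of the 31460 Ensembl transcript IDs of the files, 343 of them in the block, is in that table, and the sources used here do not give the build of the deposited coordinates. The loci were therefore not assigned to these genes. They are described by the deposited position on chromosome 4 and, where the files give one, by Ensembl transcript ID. For the same reason the lists of leukocyte markers and of genes in this region could not be read, the label of the tissue was not checked against markers, and fewer cells of a type and less RNA per cell cannot be told apart.

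Of the 149 loci 117 had an Ensembl transcript ID and 32 had none, 46 had a single transcript, and 66 shared their span with another locus of the block. The levels were uneven: 14 loci had a mean of at least 100 FPKM, 51 lay between 10 and 100 FPKM, and 84 lay lower. The share at 100 FPKM or more was 9.40 percent in the block and 6.36 percent over all kept loci, while the median level was 6.90 FPKM in the block and 10.8 FPKM over all kept loci. The 350 loci summed to 5479 FPKM for N, 4999 for H, 5564 for 75C, 6237 for 50CSN and 5418 for 50CSH. As a share of the summed FPKM of each library this was 0.745 percent for N, 0.681 for H, 0.660 for 75C, 0.731 for 50CSN and 0.687 for 50CSH. The block was thus largest in 50CSN by its sum, and largest in N as a share of the library. Of the 201 loci left out for a low mean, 109 were listed at 0 in all 5 libraries, and the highest value of the other 92 in any library was 2.03 FPKM. Only 1 of the 149 loci was listed at 0 in a library. It is one of the loci of ENSBTAT00000049024, in the span from 109624150 to 109825320, listed at 0 in H and 75C and at 2.22 FPKM for N, 1.58 FPKM for 50CSN and 1.83 FPKM for 50CSH. Just inside the boundary, 2 kept loci shared the span from 105218667 to 105348914, with values from 0.137 FPKM, in 75C, to 2.95 FPKM, in H. The nearest kept locus before it lay from 103808944 to 103810860, at 3.84 FPKM for H to 5.15 FPKM for 50CSH. Outside the block no kept locus thus lay close to the cut.

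**Figure D1:**
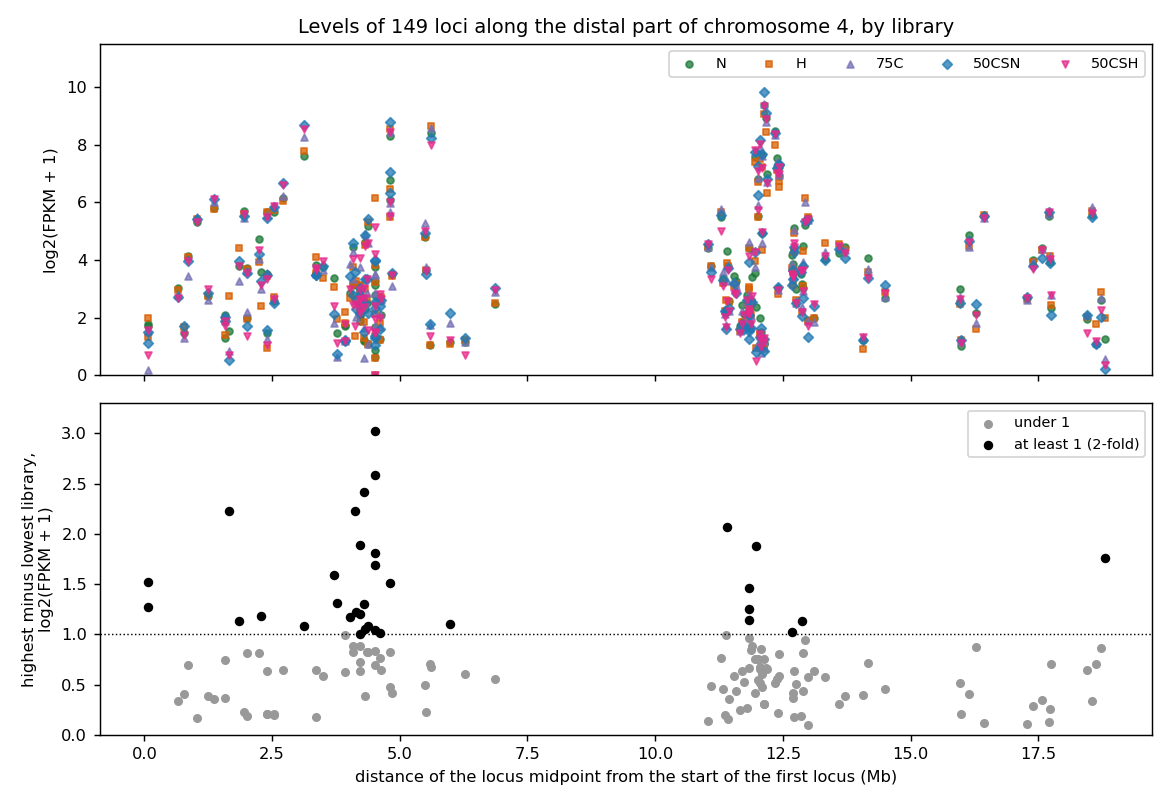
Upper panel: log2(FPKM + 1) of the 149 loci (points, 1 colour and marker for each library) against the distance of the locus midpoint from the start of the first locus, in Mb. Lower panel: the difference between the highest and the lowest library of each locus on the same scale, black where it is at least 1. A dense group of loci near 5 Mb holds 17 of the 34 loci drawn in black, and a group near 12.5 Mb holds the highest levels with small differences.

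The loci were divided into 6 stretches after the values were seen, so the stretches are described and not tested. One, from 117096215 to 117647266 and here called the high stretch, held 22 kept loci and 51.8 percent of the FPKM of the kept loci. Another, from 109092004 to 110075718 and here called the variable stretch, held 34 kept loci and 13.6 percent. A gap without kept loci ran from 112268474 to 116206804. The median difference between the highest and lowest library, on the log2(FPKM + 1) scale, was 1.00 in the variable stretch, between 0.45 and 0.63 in the others, and 0.48 over all kept loci.

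In the variable stretch the libraries stood farthest apart. In 17 of its 34 loci the highest and lowest libraries were at least 2-fold apart on the log2(FPKM + 1) scale, against 14.4 percent of all kept loci. In the block as a whole this held for 34 of 149 loci, or 22.8 percent. Of the 34 loci in the variable stretch 26 had a mean under 10 FPKM. Among loci with a mean from 3 to 10 FPKM, 10 of 18 in this stretch were 2-fold apart, 6 of 32 in the rest of the block and 17.6 percent of all kept loci at that level. Of the 17 loci 10 had a single transcript, and 11 lay in spans that hold another kept locus. Among all 34 loci of the stretch 16 had a single transcript, and 25 shared a span with another locus of the block, kept or not. The count was 11 when N was left out, and 13 to 15 when any other library was left out. Leaving out a library cannot widen this difference, and the share of all kept loci fell too, to between 11.1 and 12.7 percent. Over the genome 110 windows of 1 Mb held at least 20 kept loci. In 3 of them at least 50 percent of the loci were 2-fold apart, and the highest share was 76.2 percent. The window of the block from 109 Mb held 16 such loci of 30. Depth in reads is not given by FPKM values, so the part of counting error in these differences was not tested.

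The highest value fell in a different library from locus to locus. Of the 17 loci, 5 were highest in 50CSN, 4 in H, 4 in 50CSH, 2 in N and 2 in 75C, while 17.8, 19.4, 19.9, 24.9 and 18.1 percent of all kept loci were highest in these libraries. The lowest value lay in N at 6 loci, in H at 6, in 50CSH at 3 and in 75C at 2. Of all 34 loci 13 were highest in 50CSN, where 17.8 percent of all kept loci have their highest value, and 2 in N, against 24.9 percent.

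**Figure D2:**
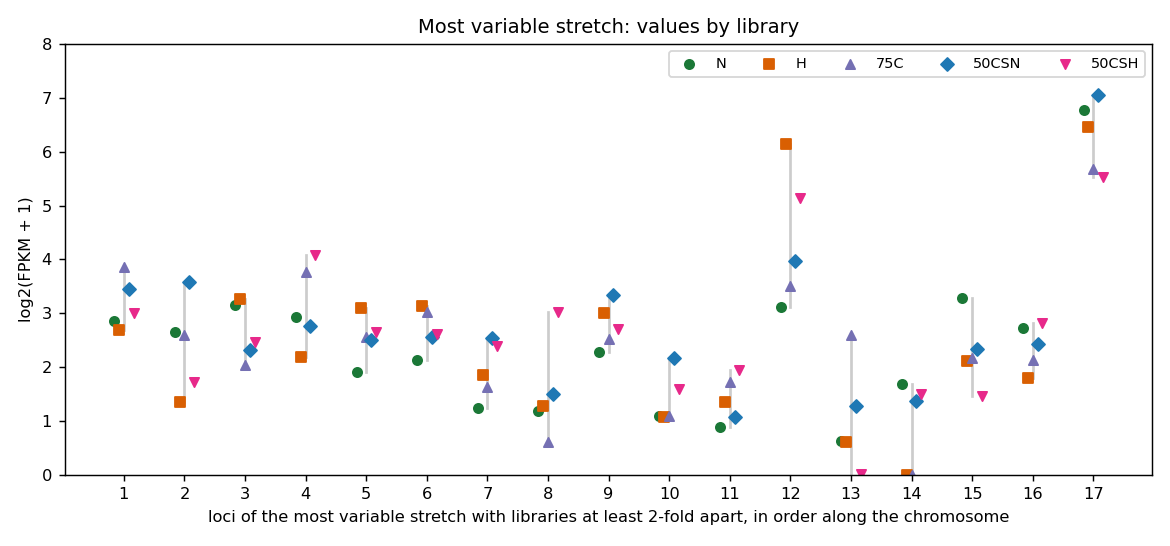
Values of the 17 loci of the variable stretch whose highest and lowest libraries were at least 2-fold apart, in order along the chromosome (loci that share a span have no order among them), as log2(FPKM + 1), 1 marker for each library, with a grey line from the lowest to the highest. The order of the libraries changes from locus to locus, and the locus numbered 12, that of ENSBTAT00000010615, stands from 7.69 FPKM for N to 69.8 FPKM for H.

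The locus of ENSBTAT00000010615, in the span from 109624150 to 109825320, showed the widest difference of the block on the log2(FPKM + 1) scale, 3.03. Some loci at lower levels were wider by plain ratio, among them ENSBTAT00000053963 at 13.6-fold. The locus of ENSBTAT00000010615 was at 7.69 FPKM for N, 69.8 for H, 10.3 for 75C, 14.7 for 50CSN and 34.5 for 50CSH. H was highest by a factor of 9.07 over N, the cross with a Holstein sire came next, and the remaining 3 libraries lay between 7.69 and 14.7 FPKM. One of its 3 transcripts carried the difference, at 63.1 FPKM for H and 23.4 FPKM for 50CSH, against 4.48 FPKM for N, 7.03 FPKM for 75C and 11.6 FPKM for 50CSN. The 7 kept loci of this span summed to 38.5 FPKM for N, 97.0 for H, 37.8 for 75C, 42.8 for 50CSN and 62.8 for 50CSH, so the sum kept the same 2 libraries on top. Another locus of the span, without an Ensembl ID, stood the other way, at 8.70 FPKM for N and 3.35 FPKM for H, 3.48 FPKM for 75C, 4.05 FPKM for 50CSN and 1.76 FPKM for 50CSH.

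Loci before that span also differed. ENSBTAT00000056486, from 109350864 to 109351295, was at 5.30 FPKM for N, 1.57 for H, 5.04 for 75C, 11.0 for 50CSN and 2.32 for 50CSH. The cross with a native sire was highest, and H and the cross with a Holstein sire were lowest. ENSBTAT00000053963, from 109526715 to 109529316, was at 7.18 FPKM for 50CSH and between 0.528 FPKM, in 75C, and 1.84 FPKM, in 50CSN, in the other libraries. ENSBTAT00000031673, whose span is 109364765 to 109518397, was at 6.64 FPKM for N, 3.58 for H, 12.6 for 75C, 5.80 for 50CSN and 16.0 for 50CSH. Here 75C and 50CSH stood above the others. The 6 kept loci of that span summed to 24.0 FPKM for N and to between 32.0 FPKM, in 50CSN, and 40.7 FPKM, in 50CSH, in the rest.

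At the far end of the stretch, 3 loci shared the span from 109998806 to 110061407, and they held its 3 highest levels. The first, with ENSBTAT00000053883 among its IDs, was at 316 FPKM for N, 378 for H, 348 for 75C, 439.6 for 50CSN and 349 for 50CSH. The second, ENSBTAT00000028731, was at 109 FPKM for N, 86.8 for H, 49.9 for 75C, 131 for 50CSN and 45.2 for 50CSH. The third, with ENSBTAT00000028729, lay between 44.4 FPKM, in H, and 79.4 FPKM, in 50CSN. The libraries thus differed at the second locus by a factor of 2.90 and at the first by 1.39. The sum of the 3 loci was 492 FPKM for N, 509 for H, 461 for 75C, 650.2 for 50CSN and 458 for 50CSH, a factor of 1.42 between the extremes. FPKM values divide reads between neighbouring transcripts and near-identical copies by a model, and whether these loci share reads was not tested.

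The second locus also differed in its transcripts. Its first transcript was at 96.5 FPKM for N, 66.6 for H, 23.2 for 75C, 119 for 50CSN and 31.1 for 50CSH, while its second transcript lay between 11.8 FPKM, in 50CSN, and 26.8 FPKM, in 75C. The first made up 91.0 percent of the locus in 50CSN and 46.4 percent in 75C. In the block 103 kept loci had several transcripts and were above 0 in every library, and at 63 of them the same transcript led in all 5 libraries. That was so at 9 of 18 such loci of the variable stretch and at 9 of 11 of the high stretch. The median level of the kept loci was 5.36 FPKM in the variable stretch and 79.8 FPKM in the high stretch. The share over the genome was not computed, so these counts do not set either stretch apart.

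**Figure D3:**
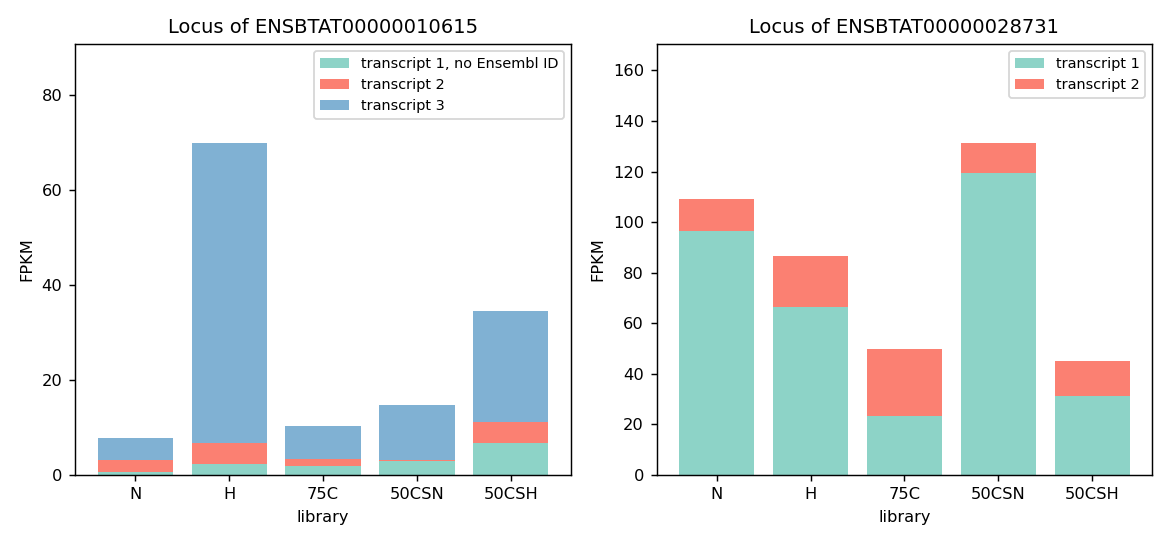
FPKM of each transcript (stacked colours) in each library at the locus of ENSBTAT00000010615 (left) and that of ENSBTAT00000028731 (right). At the left the third transcript makes most of the 69.8 FPKM of H, and at the right the first transcript is at 119 FPKM for 50CSN and 23.2 FPKM for 75C.

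The high stretch held the highest levels of the block, with 11 of its 22 loci at a mean of at least 100 FPKM. ENSBTAT00000034773, whose span is 117334013 to 117353848, was the highest locus of the block, at 661 FPKM for N, 538 for H, 681 for 75C, 909 for 50CSN and 649.7 for 50CSH. ENSBTAT00000014926, from 117380580 to 117388997, was at 485 FPKM for N, 346 for H, 448 for 75C, 548 for 50CSN and 479 for 50CSH. At both loci H was lowest and 50CSN highest.

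This order recurred along the stretch. The level was lower in H than in N at 20 of 22 loci, against 53.3 percent of all kept loci, with a median log2 difference of -0.36, while the median over all kept loci was -0.02. H was the lowest of the 5 libraries at 13 of the 22 loci, against 22.2 percent of all kept loci, and 50CSN was the highest at 10, against 17.8 percent. Among the 14 loci averaging 10 FPKM or more, H was lower than N at 13 and below every crossbred at 11. The differences were small, and at these 14 loci H minus N ranged from -0.68 to 0.44 on the log2 scale. ENSBTAT00000043789, from 117566649 to 117579430, was at 359 FPKM for N, 252 for H, 326 for 75C, 337 for 50CSN and 328 for 50CSH, so H stood apart from the other 4. At ENSBTAT00000055206, from 117605737 to 117607558, the value was 188 FPKM for N, 139.8 for H, 170.4 for 75C, 146 for 50CSN and 128 for 50CSH. Here 50CSH was lowest. The 22 loci summed to 2902 FPKM for N, 2253 for H, 2868 for 75C, 3373 for 50CSN and 2848 for 50CSH. As a share of the library that was 0.395 percent for N, 0.307 for H, 0.340 for 75C, 0.395 for 50CSN and 0.361 for 50CSH, so H remained lowest on that scale too. Under median-of-ratios scaling and under quantile normalization H was also lower than N at 20 of the 22 loci. All kept loci gave 50.5 and 48.4 percent. The median-of-ratios factors of N and H were 1.011 and 1.000, so that scaling could change little.

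**Figure D4:**
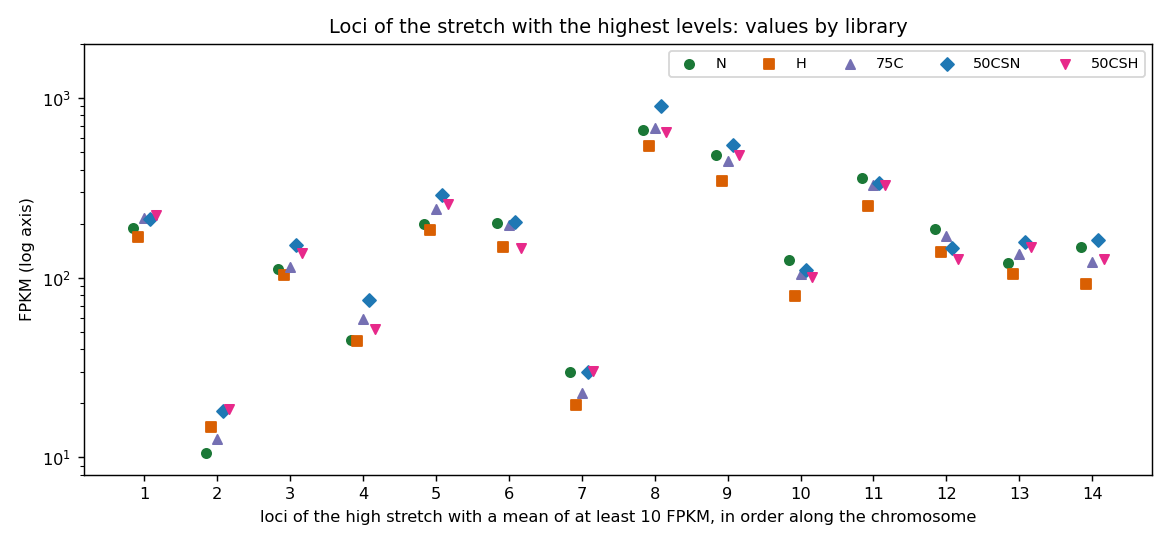
FPKM, on a log axis, of the 14 loci of the high stretch averaging 10 FPKM or more, in order along the chromosome (loci that share a span have no order among them), 1 marker for each library. H is the lowest marker at 11 of the 14 loci and 50CSN the highest at 8.

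The purebred libraries were set against each other to describe how the parental populations differ in this block. Between H and N 9 of 149 loci were at least 2-fold apart, or 6.04 percent, against 3.32 percent of all kept loci. Of the 9, 4 were higher in H and 5 lower, where all kept loci give 1.46 and 1.86 percent, and 6 lay in the variable stretch. Outside that stretch 3 of 115 loci were so far apart, or 2.61 percent. One of these lay from 106882695 to 106886667, without an Ensembl ID, at 1.91 FPKM for N and 5.74 FPKM for H. Another, ENSBTAT00000016258, from 107488749 to 107502666, was at 10.9 FPKM for N, 4.25 for H, 6.99 for 75C, 8.70 for 50CSN and 7.80 for 50CSH. There the 3 crosses lay between the purebreds. The remaining one, a locus from 117197268 to 117197574 without an Ensembl ID, was at 4.24 FPKM for N and under 1 FPKM in the other 4 libraries.

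The reciprocal crosses share their breed shares and differ in the breed of the sire. Between 50CSH and 50CSN 6 of 149 loci were at least 2-fold apart, or 4.03 percent, against 2.82 percent of all kept loci. They split into 3 higher and 3 lower in 50CSH, where all kept loci give 1.25 and 1.56 percent. All 6 lay in the variable stretch, where they made 17.6 percent of the 34 loci. Higher in 50CSH were ENSBTAT00000053963, ENSBTAT00000031673 and ENSBTAT00000010615, by log2 differences of 1.52, 1.32 and 1.18. Lower were ENSBTAT00000056486, ENSBTAT00000028731 and a locus of ENSBTAT00000038869 in the span from 109624150 to 109825320, at 1.44 FPKM for 50CSN and 0.0066 FPKM for 50CSH. The median log2 difference over the 149 loci was 0.00, and over all kept loci 0.02.

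The 75C library was compared with the purebreds and with the other crosses. Against H 13 loci were at least 2-fold apart, or 8.72 percent, against 3.52 percent of all kept loci, with 9 of the 13 lower in 75C and 4 higher, where all kept loci give 1.87 and 1.65 percent. Against N 9 loci were 2-fold apart, with 4.71 percent over all kept loci. Of the 9, 8 were lower in 75C and 1 higher, where all kept loci give 2.62 and 2.09 percent. Set against 75C, 50CSN had 8 loci 2-fold apart, with 3.58 percent over all kept loci, and 50CSH had 5, with 3.60 percent. In the variable stretch lay 6 of the 13 loci apart from H and 5 of the 9 apart from N. ENSBTAT00000026934, from 106978152 to 107151559, was at 12.8 FPKM for N, 20.3 for H, 8.69 for 75C, 14.8 for 50CSN and 12.9 for 50CSH, so 75C was lowest and H highest.

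The 50 percent crosses were also set against each purebred. Against N 12 loci were 2-fold apart in 50CSN and 10 in 50CSH, with 5.86 and 5.72 percent over all kept loci. Against H 11 were 2-fold apart in 50CSN and 8 in 50CSH, with 5.80 and 5.90 percent over all kept loci. These shares of the block ran from 5.37 to 8.05 percent and lay near those of the genome. The 10 comparisons share libraries and are not independent of each other. In the authors' deposited table of the same 10 comparisons, no transcript of the block was called at a q-value of 0.05, among 362 to 405 tested. The share called over all transcripts in the authors' deposited table was 0.0796 percent for H with N, 0.183, 0.144 and 0.151 percent for N with 75C, 50CSN and 50CSH, and 0.0758, 0.157 and 0.176 percent for H with 75C, 50CSN and 50CSH. It was 0.0849 and 0.0574 percent for 75C with 50CSN and 50CSH, and 0.0477 percent between the reciprocal crosses.

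**Figure D5:**
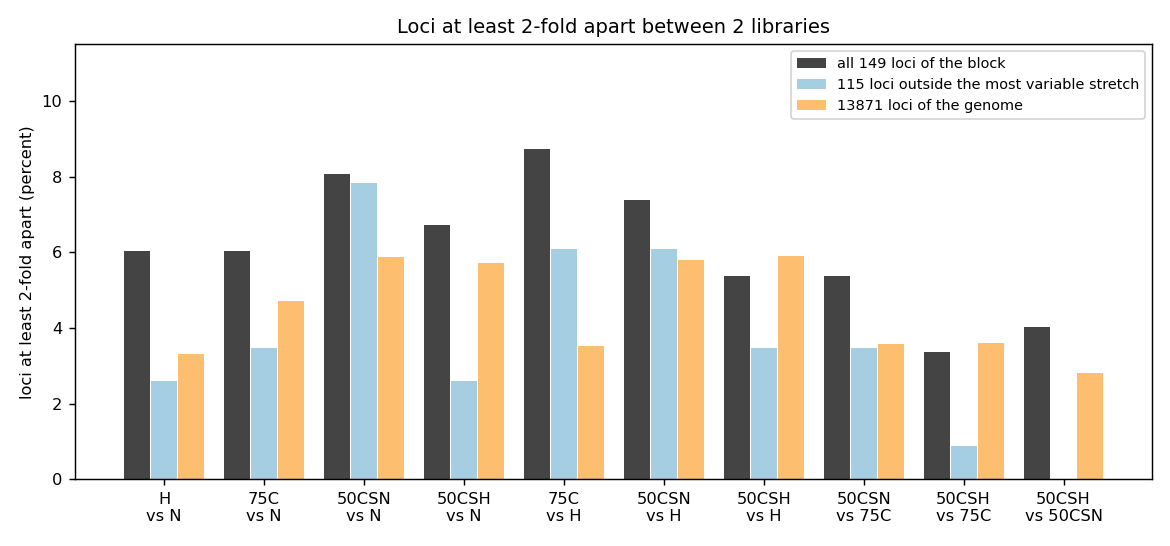
Percent of loci at least 2-fold apart on the log2(FPKM + 1) scale in each of the 10 pairs of libraries, for the 149 loci of the block, the 115 outside the variable stretch, and the 13871 kept loci of the genome. The block lies above the genome in 8 of the 10 pairs, and without the stretch the share between 50CSH and 50CSN is 0.

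The comparison of the 3 crossbred with the 2 purebred libraries treats populations as the replicates of a class. No locus of the block passed an adjusted p of 0.05 by limma with Benjamini-Hochberg adjustment over the genome, where 0.0288 percent did. At an unadjusted p of 0.05 limma gave 24 of 149 loci, 12 higher and 12 lower in crossbreds, or 16.1 percent against 21.7 percent of all kept loci. All 3 crossbred values lay above both purebred values at 20 loci, or 13.4 percent, where all kept loci give 21.0 percent. They lay below both at 25 loci, or 16.8 percent, where all kept loci give 22.3 percent. Loci whose groups did not overlap were thus no more frequent here than elsewhere. A permutation of 3 against 2 libraries cannot give an exact p below 0.1.

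Counts of these loci are given by stretch, to be read against the 21.0 percent higher and 22.3 percent lower over all kept loci. Before the variable stretch 10 of 29 loci lay lower in all crossbreds and 5 higher. In it 2 of 34 lay lower and 4 higher, and between it and the gap 4 of 7 lay higher and none lower. Between the gap and the high stretch 6 of 21 lay lower and none higher. In the high stretch 6 of 22 lay higher and none lower, and beyond it 7 of 36 lay lower and 1 higher. The difference between stretches was not tested.

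Highest among the loci above both purebreds was one of 256 nt, from 108339125 to 108339380, with a single transcript and no Ensembl ID. It was at 193 FPKM for N, 221 for H, 311 for 75C, 408 for 50CSN and 373 for 50CSH. The crossbreds did not overlap the purebreds, and the difference was 0.81 on the log2 scale ± 0.15 (standard error, limma adjusted p = 0.11). ENSBTAT00000001588, from 117262459 to 117273705, was at 199 FPKM for N, 183 for H, 242 for 75C, 289.6 for 50CSN and 259 for 50CSH. Its difference was 0.46 ± 0.11 (standard error, limma adjusted p = 0.13). From 111885799 to 112268474, the locus of ENSBTAT00000023510 was at 4.56 FPKM for N, 4.66 for H, 6.36 for 75C, 7.17 for 50CSN and 6.71 for 50CSH. None of these 3 passed the test.

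Below both purebreds was ENSBTAT00000027255, from 108922119 to 108937635, at 9.52 FPKM for N, 7.29 for H, 2.50 for 75C, 3.43 for 50CSN and 4.30 for 50CSH. The difference was -1.10 ± 0.22 (standard error, limma adjusted p = 0.12). ENSBTAT00000056258, from 109353080 to 109355531, was at 7.92 FPKM for N, 8.61 for H, 3.12 for 75C, 3.98 for 50CSN and 4.52 for 50CSH (limma adjusted p = 0.11). A locus without an Ensembl ID, from 116615191 to 116616716, was at 18.7 FPKM for N, 14.1 for H, 8.64 for 75C, 3.71 for 50CSN and 5.004 for 50CSH. There 75C lay between the purebreds and the 50 percent crosses. ENSBTAT00000019108, whose span is 118099651 to 118138732, was at 21.2 FPKM for N, 18.9 for H, 14.4 for 75C, 12.8 for 50CSN and 11.7 for 50CSH. These loci did not pass the test either.

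The authors' deposited table of pooled purebreds against pooled crossbreds calls 1 transcript of the block among 390 tested, where 0.936 percent of all tested transcripts were called. It belongs to the locus from 106882695 to 106886667, and the authors' deposited table gives a log2 fold change of -2.24, crossbreds over purebreds, and a q-value of 0.0093. In the single libraries this transcript was at 1.20 FPKM for N, 3.38 for H, 0.724 for 75C, 0.413 for 50CSN and 0.289 for 50CSH. The groups did not overlap, and H was well above N. For the whole locus limma gave an adjusted p of 0.14.

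Crossbred levels were also placed relative to the purebred range, that is, between N and H or outside it. 75C lay between the purebreds at 61 of 149 loci, or 40.9 percent, against 26.4 percent of all kept loci. 50CSN lay between them at 34, or 22.8 percent, against 20.4 percent, and 50CSH at 49, or 32.9 percent, against 21.4 percent. In the variable stretch 75C lay between the purebreds at 17 of 34 loci and 50CSN above both at 19, against 36.0 percent of all kept loci. Between the gap and the high stretch 50CSN lay below both purebreds at 14 of 21 loci and 50CSH at 15, against 43.6 and 41.1 percent of all kept loci. The 3 placements share N and H. They also depend on how far apart N and H lie. The median absolute log2 difference of H and N was 0.20 in the block and 0.15 over all kept loci. How much of the shares between the purebreds follows from this was not tested.

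Other loci of the block were nearly level. ENSBTAT00000005970, in the span from 118184759 to 118242035, had the smallest difference between libraries, from 40.9 FPKM, in 75C, to 43.9 FPKM, in H. The locus of ENSBTAT00000013528 and 5 further IDs, from 121590042 to 121700916, lay between 42.6 FPKM, in 75C, and 46.4 FPKM, in H. ENSBTAT00000028806, from 106144531 to 106362332, lay between 39.1 FPKM, in N, and 44.0 FPKM, in 75C. Beyond the high stretch 3 of 36 loci had libraries at least 2-fold apart.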

How the data were processed

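The submitters' processing notes list TopHat2 (2.0.9) and Cufflinks (2.2.1.0). The sources used here give no settings, annotation or genome build, and the labels' protocol names no step that marks strand. The authors deposited FPKM per transcript and library. Their deposited tables also hold a p-value and q-value per test and, for pooled crossbreds over purebreds, a log2 fold change. FPKM keeps no read count, so depth is unknown. A listed 0 can be a failed estimate.

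FPKM were summed per locus, loci averaging 1 FPKM or more were kept, and values were compared as log2(FPKM + 1), which understates the change of low loci. All 13871 kept loci entered 1 limma fit (version 3.58.1, R 4.3.3), in which the prior variance followed mean level, and p-values were adjusted by Benjamini-Hochberg. The same fit was run on simulated data of 13871 loci for the comparison of crossbreds with purebreds. There it recovered 46.5 percent of 200 loci changed 2-fold and 88.5 percent of 200 changed 4-fold, with 5 and 6 false calls. The changed loci were drawn only from those with a mean log2(FPKM + 1) above 2. The change was added on that scale, the same in all 3 crossbreds, with normal noise drawn independently for each locus and library. Real populations need not vary in this way, so the rates may not hold for these libraries. The rates do not cover lower loci, and 34 of the 149 loci of the block averaged from 1 to under 3 FPKM. Python 3.11.15, pandas 2.3.3, numpy 2.4.6 and matplotlib 3.10.9 were used.

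The rule for named loci took the 12 highest with an Ensembl ID and the 4 highest without, up to 5 highest and 5 lowest differences between H and N and between 50CSH and 50CSN among loci at least 2-fold apart and above 0 in all libraries (4 and 4, and 3 and 3, met this), the 5 highest and 5 lowest between crossbreds and purebreds among loci without overlap and above 0 in all libraries, loci listed at 0 and loci called by the authors. The results describe those that matter most. Loci named in addition, to describe a stretch, were chosen after their values were seen. The block, its stretches and this rule were chosen with earlier results of these data known. Alternatives covered the pseudocount, filters, scaling, the unit, the boundary and left-out libraries.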

Additional observations from a re-analysis of the deposited data

How the results depend on the processing

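No paired analysis was possible because each population has 1 library. For the 10 loci named without overlap, the difference of crossbreds from purebreds kept its sign in all 126 refits. They were chosen because the groups did not overlap, so leaving out a library or lowering the pseudocount could not reverse the sign. In the refits that kept both purebred libraries, limma adjusted p ran from 0.074 to 0.49. Limma called no locus of the block under any alternative that kept both purebred libraries. Over the genome these runs called from 0 to 0.0865 percent, so a count of 0 in the block says little. Loci without overlap numbered 20 higher and 25 lower in crossbreds, of 149. They were 13 and 16 of 95 with a mean of at least 5 FPKM, and 38 and 45 of 291 per transcript. From 110 Mb they were 11 and 13 of 90, and without a filter 39 of 350 were lower. In that order the higher loci made 13.7, 13.1 and 12.2 percent, against 24.4, 15.7 and 21.0 percent over the genome. The lower loci made 16.8, 15.5, 14.4 and 11.1 percent, against 22.2, 19.9, 22.3 and 14.6 percent. Leaving out 1 library in turn gave 24 to 42 higher, the most without N, and 30 to 53 lower, the most without H. These were 16.1 to 28.2 and 20.1 to 35.6 percent. Fewer values must then be ordered, and the genome gave 25.2 to 32.4 percent higher and 25.6 to 34.9 percent lower.

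Loci 2-fold apart between H and N numbered 16 with a pseudocount of 0.1 and 5 with a mean of at least 5 FPKM. Per transcript they numbered 31, and from 110 Mb 1. The block held 149, 95, 291 and 90 loci or transcripts under these settings. The block shares were 10.7, 5.26, 10.7 and 1.11 percent, against 5.80, 2.43, 8.90 and 3.32 percent over the genome. In the same order of settings the loci numbered 18, 4, 34 and 3 for 75C with N. For 50CSN with N they were 20, 5, 42 and 6, and for 50CSH with N 18, 4, 38 and 3. The genome shares were 7.52, 3.47, 10.3 and 4.71 percent for 75C with N. They were 9.81, 4.49, 14.2 and 5.86 percent for 50CSN with N, and 10.1, 4.62, 14.2 and 5.72 percent for 50CSH with N. The loci numbered 25, 3, 45 and 5 for 50CSN with H, and 14, 2, 46 and 2 for 50CSH with H. The genome shares were 9.59, 4.62, 14.45 and 5.80 percent for 50CSN with H. They were 9.62, 4.66, 14.52 and 5.90 percent for 50CSH with H. For 50CSN with 75C the loci numbered 15, 2, 33 and 4, and for 50CSH with 75C 10, 1, 34 and 0. The genome shares were 6.36, 2.79, 11.60 and 3.58 percent for 50CSN with 75C. They were 6.496, 2.82, 11.49 and 3.60 percent for 50CSH with 75C. For 75C with H the counts were 7 with the higher mean, 35 per transcript and 2 from 110 Mb. The genome shares there were 2.79, 9.18 and 3.52 percent. For the reciprocal crosses the counts were 12 with the lower pseudocount, 23 per transcript and 1 from 110 Mb. The genome shares there were 5.50, 9.04 and 2.82 percent. From 110 Mb the block share lay below the genome share in every pair except 50CSN with N and 50CSN with 75C. Per transcript it lay below for 50CSH with N, 50CSN with 75C and the reciprocal crosses. With the higher mean it lay below for 50CSH with N, for both 50 percent crosses with H and for both with 75C. With the lower pseudocount it lay below for 50CSH with H. A lower pseudocount can only widen a log2 difference, and a higher mean or a later start leaves fewer loci. Transcripts outnumber loci, but the share for H with N rose too, from 6.04 to 10.7 percent, and from 3.32 to 8.90 percent over the genome. The cause of the other changes was not tested.

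The sum of the block from 110 Mb was 4584 FPKM for N, 4033 for H, 4576 for 75C, 5071 for 50CSN and 4306 for 50CSH. Median-of-ratios scaling gave 5418 in N, 5453 in 75C, 6387 in 50CSN and 5460.0 FPKM for 50CSH, and loci above 0 in all libraries gave 5470.1 FPKM for N. The 17 loci of the variable stretch became 9 of 20 with a mean of at least 5 FPKM and 35 of 52 per transcript. The genome gave 10.1 and 34.0 percent. With a library left out they became 11 to 15, the fewest without N, and the genome gave 11.1 to 12.7 percent. In the high stretch 37 of 47 transcripts were lower in H than in N, against 51.9 percent over the genome. The alternatives of both stretches were chosen after seeing the data. FPKM give no read depth, so counting error is unknown.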
